A study of Mus musculus with 2 samples.

Results

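The genes described are 77 cell cycle and mitosis genes, chosen by their symbols. Among them are A-, B-, D- and E-type cyclins, the cyclin-dependent kinases (CDKs) 1, 2, 4 and 6, CDK inhibitors and E2F factors. The others are MCM proteins, genes with Cenp symbols (most of them for centromere proteins) and single genes for DNA synthesis and mitosis. These genes are 77 of the 16302 gene symbols in the joined tables, and all 77 were listed for both genotypes. By phase they comprised 7 CDK inhibitors, 17 G1 genes, 14 S phase genes and 39 M phase genes. The values come from RNA sequencing of primary astrocytes grown from the adult dentate gyrus (DG) of the hippocampus of C57BL/6 mice, either wild type (WT) or lacking β-arrestin 1 throughout the body (β-arr1 KO). Both cultures were grown in medium with serum, and loosely attached cells, among them dividing ones, were shaken off so that the adherent astrocytes stayed. The labels describe pooled cDNA, and 1 library was sequenced per genotype. The comparison therefore has no replicate check and no test of genotype, and the mice, cultures and libraries cannot be told apart from the genotype. The age of the mice is given only as adult.

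Proliferating cells pass from G1 through S phase, in which DNA is copied, to M phase, in which chromosomes are separated. D- and E-type cyclins with their CDKs inactivate the Rb protein family in G1, freeing the E2F factors to switch on genes for DNA synthesis. Genes for mitosis are switched on later, and the DREAM and MuvB complexes control the timing of many of them. CDK inhibitors of the INK4 and Cip/Kip families hold these kinases back, and cultured astrocytes can divide in the presence of serum.

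The promoters of the members were searched for short DNA elements known from genes with this timing. Promoter windows of RefSeq (GRCm38.p6, a later build than the mm9 of the expression tables), from 250 bases before to 50 bases after a transcription start, were found for 67 of the 77 members, with 77 windows in all. An E2F element (searched as TTTCCCGC, TTTCGCGC, TTTGCCGC or TTTGGCGC on both strands) was present in 42.9% of 14 windows of S phase genes and 33.3% of 15 windows of G1 genes, compared with 10.3% of 39 windows of M phase genes and 2.26% of all 32851 windows in the table. The cell cycle genes homology region (CHR, TTTGAA on both strands), an element of mitotic genes, showed the other pattern, with 46.2% of M phase windows, 14.3% of S phase windows, 20% of G1 windows and 17.9% of all windows. CCAAT was present in 92.9% of S phase and 76.9% of M phase windows, and in 37.4% of all windows. The words of 1 element do not contain those of another, though matches can overlap at their ends, and a match is a run of letters, not a measured binding site. The words were chosen with results of these data known. The 6 windows below are shown because they hold the elements that set the phases apart: Mcm6 has the most E2F matches, Cdc6 and Mcm8 are the S phase genes past the lower limit described below, Cdk1 holds both elements, and Ccnb2 and Kif23 are M phase genes with CHR alone. Capitals mark E2F and CHR matches, and in Mcm6 the first run of capitals is 2 overlapping E2F matches, on opposite strands.
Mcm6 (chr1:128359656-128359955, minus strand): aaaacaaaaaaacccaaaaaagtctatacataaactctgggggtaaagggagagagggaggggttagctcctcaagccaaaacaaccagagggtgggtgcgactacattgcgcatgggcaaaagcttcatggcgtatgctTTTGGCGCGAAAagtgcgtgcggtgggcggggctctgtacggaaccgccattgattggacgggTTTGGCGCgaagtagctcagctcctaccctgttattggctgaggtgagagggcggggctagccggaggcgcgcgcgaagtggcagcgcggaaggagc
Cdc6 (chr11:98907901-98908200, plus strand): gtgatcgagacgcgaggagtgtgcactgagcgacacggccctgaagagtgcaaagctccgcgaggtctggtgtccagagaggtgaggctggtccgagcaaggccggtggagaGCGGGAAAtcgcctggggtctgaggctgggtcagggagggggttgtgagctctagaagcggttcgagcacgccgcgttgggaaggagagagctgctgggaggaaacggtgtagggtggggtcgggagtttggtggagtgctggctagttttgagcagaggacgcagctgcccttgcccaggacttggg
Mcm8 (chr2:132815891-132816190, plus strand): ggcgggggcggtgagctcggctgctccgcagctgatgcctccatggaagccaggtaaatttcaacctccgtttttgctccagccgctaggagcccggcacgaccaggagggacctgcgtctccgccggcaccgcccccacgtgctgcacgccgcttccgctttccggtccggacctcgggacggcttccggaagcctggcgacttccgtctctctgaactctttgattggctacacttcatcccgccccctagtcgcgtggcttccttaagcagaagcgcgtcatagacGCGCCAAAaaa
Cdk1 (chr10:69352863-69353162, minus strand): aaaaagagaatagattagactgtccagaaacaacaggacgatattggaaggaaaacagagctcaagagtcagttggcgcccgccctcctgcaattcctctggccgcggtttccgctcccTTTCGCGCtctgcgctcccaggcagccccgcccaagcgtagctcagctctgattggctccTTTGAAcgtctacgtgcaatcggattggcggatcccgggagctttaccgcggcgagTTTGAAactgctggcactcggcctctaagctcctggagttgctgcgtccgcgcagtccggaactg
Ccnb2 (chr9:70421505-70421804, minus strand): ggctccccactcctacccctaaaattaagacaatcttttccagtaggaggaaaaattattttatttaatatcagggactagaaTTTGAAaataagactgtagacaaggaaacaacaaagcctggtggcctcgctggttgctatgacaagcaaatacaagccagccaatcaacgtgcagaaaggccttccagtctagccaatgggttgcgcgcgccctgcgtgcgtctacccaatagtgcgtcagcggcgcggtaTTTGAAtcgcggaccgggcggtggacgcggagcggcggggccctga
Kif23 (chr9:61946750-61947049, minus strand): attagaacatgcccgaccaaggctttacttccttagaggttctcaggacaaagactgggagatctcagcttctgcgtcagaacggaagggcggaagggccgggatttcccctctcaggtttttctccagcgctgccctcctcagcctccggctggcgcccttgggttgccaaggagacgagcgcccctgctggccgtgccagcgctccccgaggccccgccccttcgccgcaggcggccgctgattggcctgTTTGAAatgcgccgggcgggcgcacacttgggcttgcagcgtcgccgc

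Expression was given in FPKM, a count of fragments scaled for transcript length and for the depth of the library, so that levels of different genes are compared per length. The steps between low values gave an estimated depth of 9.38 M fragments for WT and 9.52 M for β-arr1 KO. From these depths each KO to WT ratio with estimated fragments in both libraries was given a 95% interval (Clopper-Pearson). This interval covers counting error only. Arrb1, the gene deleted in the β-arr1 KO, was at 7.62 FPKM in WT against 2.72 FPKM in β-arr1 KO (ratio 0.358, interval 0.3 to 0.425). All 10 astrocyte markers were listed in both libraries, with summed levels of 396 FPKM and 420 FPKM. Gfap was the largest part of these sums (189 FPKM and 192 FPKM). Aqp4, S100b, Aldoc and Slc1a2 were above the upper limit used below, with ratios from 1.58 to 1.92. In all, 8 of the 10 were higher in β-arr1 KO, while Glul and Gja1 were lower (ratios 0.742 and 0.862). Markers of other cells were also present. Their summed levels in WT and β-arr1 KO were 156 and 205 FPKM for neural precursors (6 of 6 listed), 46.2 and 62.7 FPKM for neurons (6 and 7 of 8, with Map2 not listed in either library and Dcx not listed in WT), 85.5 and 127 FPKM for the oligodendrocyte lineage (7 and 8 of 8), 739 and 555 FPKM for microglia (8 of 8), 54.1 and 43.9 FPKM for endothelium (6 of 6) and 2935 and 2744 FPKM for mural cells or fibroblasts (6 and 5 of 7, without Pdgfrb). The sum for neurons was mostly Tubb3 (44.7 FPKM and 59.8 FPKM), and that for neural precursors mostly Nes (121 FPKM and 153 FPKM). Rbfox3, Snap25, Syt1 and Neurod1 stayed under 1 FPKM in both libraries. The sum for mural cells or fibroblasts was mostly Acta2 (2478 FPKM and 2469 FPKM). Col1a1, Rgs5 and Dcn were at ratios of 0.564, 0.615 and 0.136, and Cspg4 was at 1.41. In the endothelial sum, Cdh5 was at 31.8 FPKM in WT against 16.1 FPKM in β-arr1 KO, with Cldn5 and Tek at ratios of 0.672 and 0.686. Pecam1, Kdr and Emcn were higher, at ratios of 1.72, 1.44 and 1.15. The part of these cells in the values below was not tested. In such bulk libraries fewer cells of a type and less RNA per cell cannot be told apart.

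The cell cycle genes were expressed at similar levels in WT and β-arr1 KO astrocytes. A gene was called changed when its ratio was above 3/2 or below 2/3, with at least 1 FPKM in one library, which left out Ccna1, an A-type cyclin known mainly from the germline, at 0.451 FPKM in WT against 0.948 FPKM in β-arr1 KO. Of the 76 genes that remained, 2 were above the upper limit (Cdk2 and Plk4), 3 were below the lower limit (Cenph, Cdc6 and Mcm8) and 71 lay within the limits. The changed share was 6.58%, compared with 17.8% of the 12646 genes analysed (9.56% above and 8.28% below the limits). That background includes genes listed in only one table, which always count as changed, whereas all members were in both. Over the 12171 genes analysed that both tables list, the share was 14.6%. With the same limits the study reported a smaller changed share among the genes it analysed, whose selection it does not describe. With at least 5 FPKM in one library, 3 of 59 members were changed (5.08%), compared with 12.5% of all genes. The median log2 ratio was 0.06 for the members and 0.02 for all genes.

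**Figure D1:**
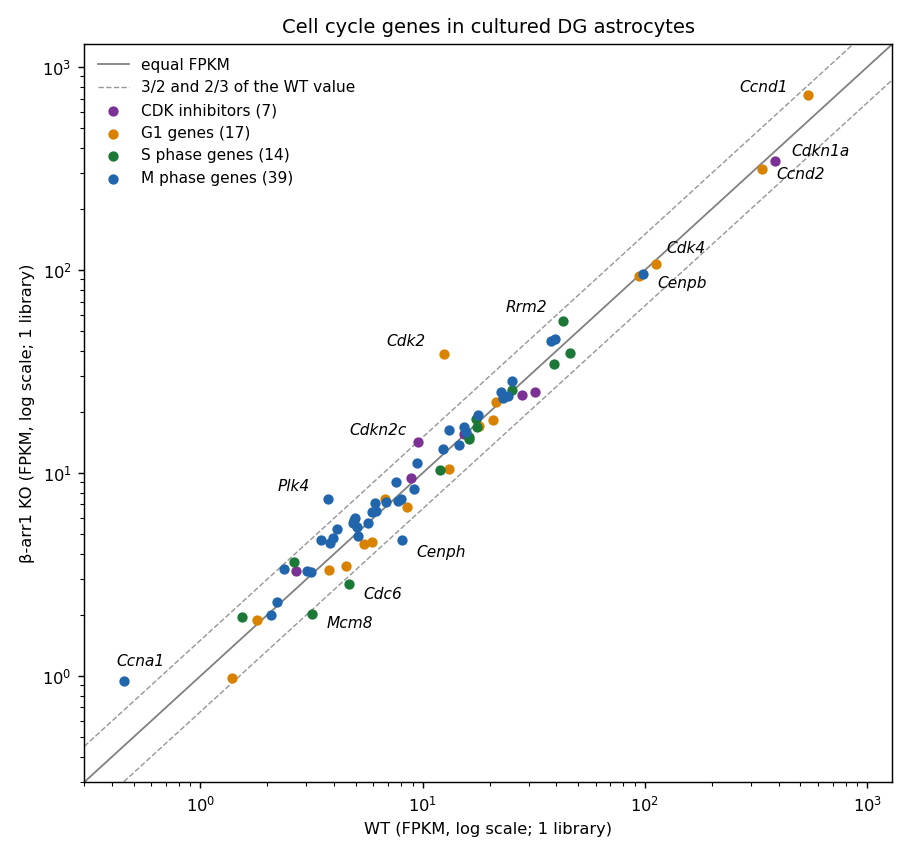
Expression of the 77 cell cycle genes in WT (x axis) and β-arr1 KO (y axis) astrocytes, in FPKM on log scales, with 1 point per gene coloured by phase. Solid and dashed lines mark equal FPKM and the ratios 3/2 and 2/3. Cdk2 and Plk4 lie above the upper dashed line, as does Ccna1, which stayed under 1 FPKM, and Cenph, Cdc6 and Mcm8 lie below the lower one.

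The spread of the ratios was smaller over the members than over all genes. The standard deviation of the log2 ratio was 0.344 over the 76 members and 0.544 over the 12171 genes analysed that both tables list. The median absolute values were 0.16 and 0.19. The sets were not matched for level. The lowest values in WT and β-arr1 KO were 1.38 and 0.982 FPKM for members, against 0.0372 and 0.0261 FPKM for all genes, where counting error is larger. Pearson's r between log2 FPKM in WT and in β-arr1 KO was 0.981 over the members and 0.959 over all genes, a description across genes of the same pair of libraries. Levels ranged over 393-fold among G1 genes in WT, from 1.38 FPKM (E2f2) to 541 FPKM (Ccnd1), and over 29.8-fold among S phase genes, so that differences between members far exceeded those between genotypes.

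The 7 CDK inhibitors stayed within the limits, as did 10390 of the 12646 genes analysed. Cdkn1a, which encodes p21 and is a target of p53, was the most abundant, at 386 FPKM in WT against 344 FPKM in β-arr1 KO (ratio 0.893, interval 0.862 to 0.926). It made up 79.9% of the summed FPKM of the inhibitors in WT and 79% in β-arr1 KO. Cdkn1b (p27) was at 15.4 FPKM and 15.5 FPKM (ratio 1.01, interval 0.901 to 1.13). Cdkn1c (p57), the third Cip/Kip member, was at 2.69 FPKM and 3.28 FPKM (ratio 1.22, interval 0.806 to 1.85). The genotypes were thus close in Cdkn1a and Cdkn1b, with only the interval of Cdkn1a leaving out 1. Cdkn1c, from an estimated 44 and 56 fragments, was too shallow to tell.

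Among the INK4 inhibitors, which bind CDK4 and CDK6, Cdkn2b (p15) was at 32.1 FPKM in WT against 25 FPKM in β-arr1 KO (ratio 0.781, interval 0.668 to 0.913). Cdkn2a was at 28.1 FPKM and 24.2 FPKM (ratio 0.861, interval 0.699 to 1.06), a single value for a gene that encodes both p16 and p19ARF. Cdkn2c (p18) went the other way, from 9.57 FPKM to 14.2 FPKM (ratio 1.48, interval 1.24 to 1.77), and was the member nearest to the upper limit on the inside. Cdkn2d (p19) was at 8.88 FPKM and 9.40 FPKM, but the tables list the same symbol at another place on chromosome 9 with 7.04 FPKM and 6.50 FPKM, so its value is uncertain. The inhibitors had a median log2 ratio of 0.01. By the deposited values, 4 of 7 were higher in β-arr1 KO (57.1%, compared with 53% of all genes). The number was 3 of 7 after rescaling to a median ratio of 1 or to the same upper quartile.

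The G1 genes were led by the D-type cyclins, the partners of CDK4 and CDK6. Ccnd1, the most abundant of the 77 genes, was at 541 FPKM in WT against 727 FPKM in β-arr1 KO (ratio 1.34, interval 1.32 to 1.37). Ccnd2 was at 336 FPKM and 316 FPKM (ratio 0.942, interval 0.922 to 0.962), and Ccnd3 at 94.0 FPKM and 93.6 FPKM (ratio 0.995, interval 0.930 to 1.06). Ccnd1 was thus higher in β-arr1 KO within the limits, and its share of the summed FPKM of the D-type cyclins was 55.7% in WT and 64% in β-arr1 KO. Their kinases were at 112 FPKM and 107 FPKM for Cdk4 (ratio 0.955, interval 0.897 to 1.02) and at 5.47 FPKM and 4.45 FPKM for Cdk6 (ratio 0.813, interval 0.651 to 1.01).

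Most of the other G1 genes were lower in β-arr1 KO, again within the limits. The E-type cyclins, which act with CDK2 at the entry into S phase, were at 13.2 FPKM in WT against 10.5 FPKM in β-arr1 KO for Ccne1 (ratio 0.798, interval 0.654 to 0.974) and at 4.5 FPKM and 3.47 FPKM for Ccne2 (ratio 0.772, interval 0.584 to 1.02). Cdc25a, the phosphatase that activates CDK2, was at 5.94 FPKM and 4.57 FPKM (ratio 0.770, interval 0.618 to 0.957). These 3 genes lay at nearly the same ratio, and the interval of Ccne2 included 1. The activator E2F factors were at 20.7 and 18.3 FPKM for E2f1, at 1.38 and 0.982 FPKM for E2f2 (ratio 0.714, interval 0.470 to 1.08, the member nearest to the lower limit on the inside) and at 6.77 and 7.48 FPKM for E2f3. Ratios of the repressor factors E2f4 to E2f8 ran from 0.802 to 1.06, and the intervals of all 8 E2F genes included 1. Of the 17 G1 genes, 12 were lower in β-arr1 KO, under each rescaling too, with a median log2 ratio of -0.09. The share higher was 29.4%, compared with 53% of all genes.

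Cdk2 had the highest ratio of the members and rested on different bounds in the tables. CDK2 is the kinase that drives entry into S phase. The row named Cdk2 gave 12.5 FPKM in WT against 38.8 FPKM in β-arr1 KO (ratio 3.11, interval 2.71 to 3.59). In WT this row covered chr10:128134995-128142107 (mm9), which are the bounds of Cdk2 in GENCODE. In β-arr1 KO it covered chr10:128114239-128142107, and so took in the whole of Rab5b, the adjacent gene on the same strand, which encodes an endosomal GTPase. WT lists Rab5b on its own, with 28.6 FPKM at chr10:128114239-128133324, and β-arr1 KO does not list it. The rows over both genes summed to 41.1 FPKM in WT against 38.8 FPKM in β-arr1 KO, at 0.944 of the WT value. The FPKM value of a row depends on the transcript length given to it, so this sum is approximate, and a separate KO value of Cdk2 cannot be read from the table. The KO row of E2f4 likewise took in 97.7% of the length of Elmo3 (1.65 FPKM in WT, not listed in β-arr1 KO), and this was found for no other member. With both members summed with their neighbours, a comparison added after seeing the data, no G1 gene was past a limit, E2f4 was at a ratio of 0.981 and 14 of 17 G1 genes were lower in β-arr1 KO. In all, 11 members had a row of another gene over part of theirs in at least one table, and reads shared with it make the values of Ccnd2, Ccnd3, E2f5, Ccne2, Mcm9, Ccna2, Cdc20, Cenpo and Cenpp less certain too.

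**Figure D2:**
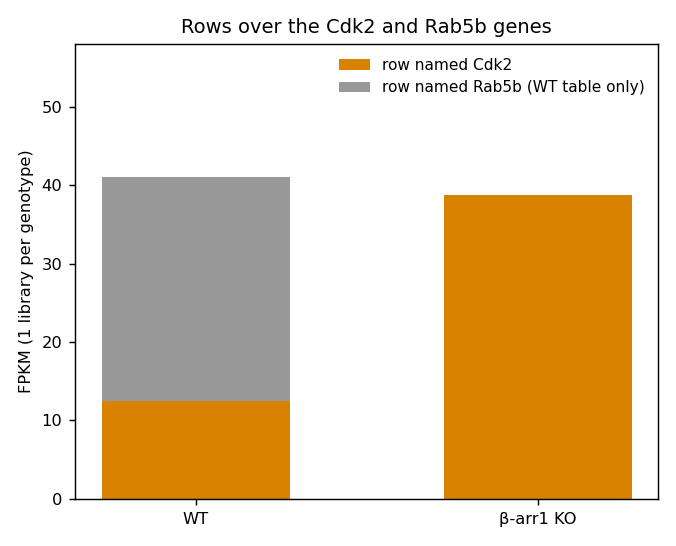
FPKM of the rows over the adjacent genes Cdk2 and Rab5b in WT and β-arr1 KO, stacked, with bars from 0 and 1 library per genotype. The WT bar is made of 12.5 FPKM for Cdk2 and 28.6 FPKM for Rab5b, and the KO bar is the single row named Cdk2, with 38.8 FPKM.

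Among S phase genes, the 6 subunits of the replicative helicase, Mcm2 to Mcm7, were expressed at like levels and differed little between genotypes. They ran from 12 FPKM (Mcm7) to 25.2 FPKM (Mcm6) in WT and from 10.3 FPKM (Mcm7) to 25.6 FPKM (Mcm6) in β-arr1 KO, with a coefficient of variation among the subunits of 24.9% and 30.4%. Mcm2 was at 16.2 FPKM and 14.7 FPKM (ratio 0.912, interval 0.800 to 1.04). The 6 ratios ran from 0.856 to 1.06, and all 6 intervals included 1.

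Cdc6 and Mcm8, which act before and beside this helicase, were lower in β-arr1 KO and below the limit. Cdc6 loads the helicase onto origins and was at 4.66 FPKM in WT against 2.83 FPKM in β-arr1 KO (ratio 0.607, interval 0.482 to 0.763, from an estimated 202 and 126 fragments). Mcm8 works in homologous recombination and was at 3.17 FPKM and 2.03 FPKM (ratio 0.641, interval 0.459 to 0.891, from 95 and 63 fragments). The E2F matches of their promoters lie at -138 in Cdc6 and +40 in Mcm8, counted from the transcription start. Both genes stayed below 5 FPKM in both libraries, and a pseudocount of 1 brought both inside the limits, at 0.677 and 0.727. The bounds of their rows differed between the tables by a short stretch at the start.

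The other S phase genes went in both directions. Pcna, the sliding clamp of DNA polymerases, was at 45.9 FPKM in WT against 39.0 FPKM in β-arr1 KO (ratio 0.851, interval 0.753 to 0.960). The subunits of ribonucleotide reductase, which makes deoxynucleotides, parted: Rrm1 was at 38.8 FPKM and 34.6 FPKM (ratio 0.893, interval 0.827 to 0.964), and Rrm2, the subunit that varies over the cell cycle, was at 42.9 FPKM and 55.9 FPKM (ratio 1.30, interval 1.19 to 1.43). The ratio of Rrm2 to Rrm1 was 1.1 in WT and 1.61 in β-arr1 KO. Mcm10, an initiation factor, was also higher (2.63 FPKM and 3.64 FPKM, ratio 1.39, interval 1.08 to 1.77), while the intervals of Cdc45 and Mcm9 included 1. The 14 S phase genes had a median log2 ratio of -0.09, and 8 of them were lower in β-arr1 KO. The share higher was 42.9%, compared with 53% of all genes.

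**Figure D3:**
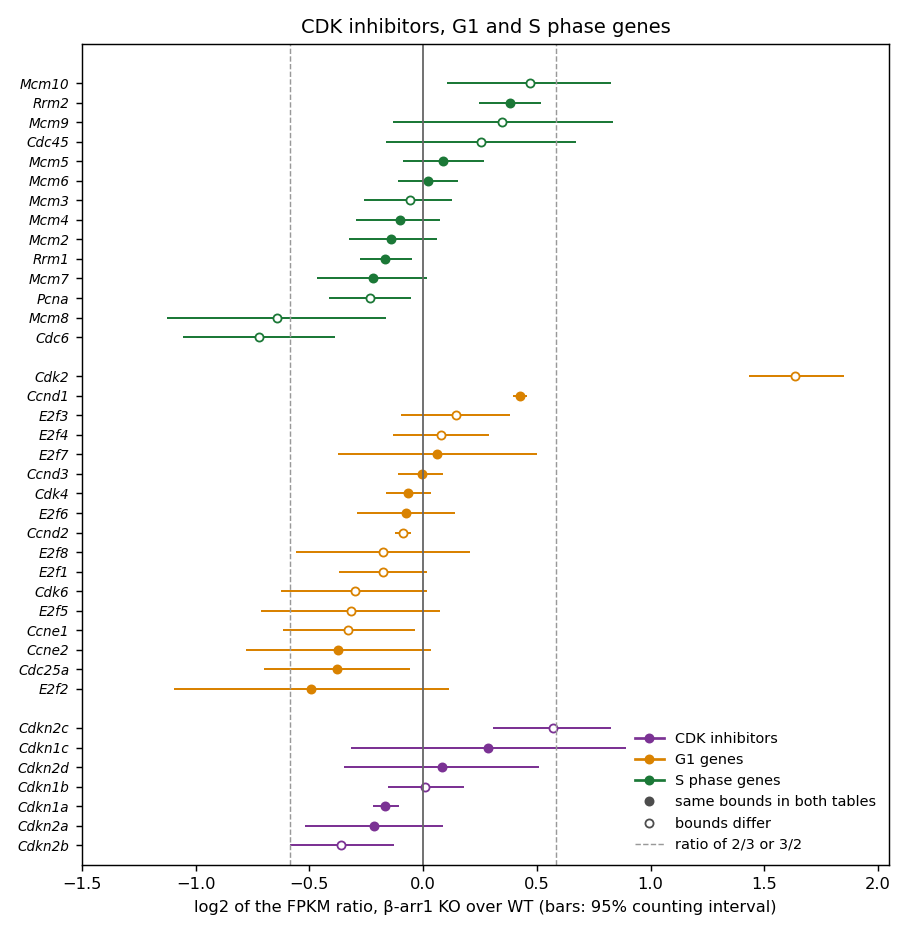
Log2 ratio of FPKM (x axis), β-arr1 KO over WT, for each CDK inhibitor, G1 gene and S phase gene (y axis). Points are ratios of 1 library per genotype, bars are 95% counting intervals, and open points mark genes whose row had different bounds in the tables. Cdk2 stands apart at a log2 ratio of 1.64, and Cdc6 and Mcm8 are left of the dashed line for a ratio of 2/3.

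The M phase genes were mostly slightly higher in β-arr1 KO. Of 38 genes, 28 were higher and 10 lower (73.7% higher, compared with 53% of all genes), with a median log2 ratio of 0.11. The number was 28 or 29 under the 3 rescalings, 21 of 29 where the bounds were equal in both tables, and 21 of 30 with at least 5 FPKM. The counting interval lay above 1 in 8 M phase genes and below 1 in 1 (Cenph). Over all 76 members the interval lay above 1 in 13 and below 1 in 10 (17.1% and 13.2%), compared with 22.2% and 18.3% of the 11841 genes with an interval. Among the M phase genes these shares were 21.1% above 1, near that of all genes, and 2.63% below 1.

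The marker genes of dividing cells did not share a direction. Mki67, which encodes the Ki-67 antigen, was at 14.5 FPKM in WT against 13.8 FPKM in β-arr1 KO (ratio 0.954, interval 0.883 to 1.03). Top2a, the topoisomerase of mitotic chromosomes, was at 25.2 FPKM and 28.3 FPKM (ratio 1.12, interval 1.04 to 1.21). Birc5, which encodes survivin of the chromosomal passenger complex, was at 22.6 FPKM and 25 FPKM, with an interval that included 1. Differences in all 3 were small beside the limits.

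Cdk1, the mitotic kinase, was at 37.9 FPKM in WT against 44.5 FPKM in β-arr1 KO (ratio 1.18, interval 1.08 to 1.28). Its partners Ccna2, Ccnb1 and Ccnb2 had ratios from 1.02 to 1.09 with intervals that included 1. The phosphatases that switch CDK1 on were at 4.12 and 5.27 FPKM for Cdc25b (ratio 1.28) and at 2.37 and 3.37 FPKM for Cdc25c (ratio 1.42), again with intervals that included 1. None of these 6 genes was past the limit, and the kinases that hold CDK1 back, Wee1 and Pkmyt1, were at ratios of 1.34 and 1.07. Bub3, a spindle checkpoint protein, was at 39.4 FPKM and 45.8 FPKM (ratio 1.16, interval 1.05 to 1.29). Its partners Bub1 and Bub1b had ratios of 1.17 (interval 0.935 to 1.47) and 1.19 (interval 1 to 1.42). Kif11 and Kif23, motor proteins of the spindle and of cytokinesis, had ratios of 1.16 (interval 0.984 to 1.37) and 1.18 (interval 1.01 to 1.39). Among the other kinases, Plk1 and Aurka were at ratios of 1.11 and 1.05 and Aurkb at 0.907, and the APC/C activator Cdc20 was at 0.990.

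Plk4 was the only M phase gene above the limit. It encodes the kinase that starts the duplication of centrioles. Its level was 3.74 FPKM in WT against 7.49 FPKM in β-arr1 KO (ratio 2, interval 1.60 to 2.52, from an estimated 116 and 238 fragments). The row began at 40603873 in WT and at 40603769 in β-arr1 KO on chromosome 3 and ended at 40620805 in both, and GENCODE places Plk4 at chr3:40603941-40620805. No row of another gene lay over it in either table. Its promoter window held no E2F, CHR or CCAAT match.

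The 18 genes under Cenp symbols, most of which encode centromere proteins, covered 2.07 to 98.2 FPKM in WT and 2 to 95.7 FPKM in β-arr1 KO. Cenpb, which binds a repeat of centromeric DNA, was by far the highest (98.2 FPKM and 95.7 FPKM, ratio 0.975, interval 0.934 to 1.02). Cenph, a subunit of the inner kinetochore, was the only one past a limit, at 8.05 FPKM and 4.66 FPKM (ratio 0.579, interval 0.398 to 0.837, from an estimated 80 and 49 fragments). Its row had the same bounds in both tables, chr13:101529641-101545854 (mm9). It was the only changed gene among the 48 members with the same bounds. The other Cenp genes had ratios from 0.931 (Cenpc1) to 1.34 (Cenpl), and the intervals of Cenpl and Cenpf, a late kinetochore protein, lay above 1. Cenpi, Cenpk and Cenpm, whose proteins form 1 complex with that of Cenph, had ratios from 0.961 to 1.19.

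**Figure D4:**
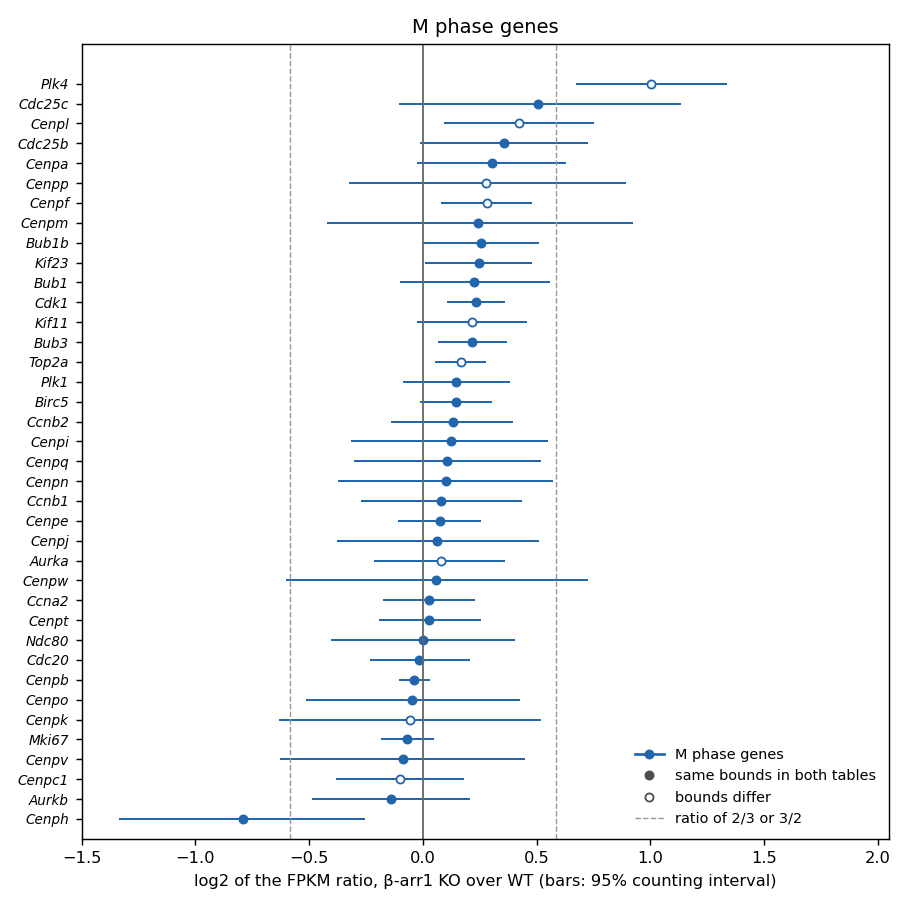
Log2 ratio of FPKM (x axis), β-arr1 KO over WT, for the 38 M phase genes with at least 1 FPKM (y axis), with 95% counting intervals as bars and open points for rows with different bounds. Of the 38 points, 28 lie right of 0. Plk4 is right of the dashed line for a ratio of 3/2 and Cenph left of that for 2/3.

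The promoter elements were set beside the ratios. The 19 members with a CHR match and no E2F match had a median log2 ratio (without a pseudocount) of 0.12. Of these, 13 were higher in β-arr1 KO (68.4%, compared with 53% of all genes). The 12 with E2F and no CHR had a median of -0.05, with 5 higher (41.7%), one of which was Cdk2. The 4 with both (Cdk1, Cenpl, E2f2 and E2f3) had a median of 0.19, and the 31 with neither had a median of 0.03. These are descriptions of small groups whose ranges overlap widely, and the phases themselves differ in both elements.

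Other genes of the same machinery, 148 listed of 150 in 9 lists, were within the limits in 134 cases, with 7 above and 7 below (9.46% changed, compared with 17.8% of all genes analysed). Their median log2 ratio was 0.09. The list of mitotic entry, spindle and cytokinesis genes had a median of 0.19. Of its 36 genes, 31 were higher in β-arr1 KO (86.1%, compared with 53% of all genes). Intervals lay above 1 in 14 of them and below 1 in 1, compared with 22.2% and 18.3% of all genes with an interval. The highest ratio of this list was that of Ckap2, a spindle protein (21.5 FPKM and 32.3 FPKM, ratio 1.5, interval 1.34 to 1.69). The KO row of Ckap2 also took in Nek3 (2.07 FPKM in WT, not listed in β-arr1 KO). Condensin and cohesin, the rings that fold and join chromatids, had 12 of 13 genes higher (92.3%) and none past a limit. Their median was 0.11. The Rb family and DREAM complex had 7 of 12 higher (58.3%), a median of 0.09 and none past a limit. Foxm1, a transcription factor of mitotic genes, was at 8.74 FPKM and 12.1 FPKM (ratio 1.38, interval 1.20 to 1.59).

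Lists for DNA replication lay near 0. Origin licensing and firing had a median of -0.03, with 1 of 16 above the limit (Orc1, at 1.93 FPKM and 2.96 FPKM) and Orc5 and Orc6 counted below it. Orc6, a subunit of the origin recognition complex, had 13.6 FPKM in WT and is missing from the β-arr1 KO table, with no other row over its place. Orc5 was at 7.36 FPKM in WT, while in β-arr1 KO a row under Gm15421 covered it. Genes of the replication fork and nucleotide synthesis had a median of -0.04, and 1 of 22 was below the limit. That gene, Tyms, encodes thymidylate synthase and was at 16.4 FPKM and 3.68 FPKM (ratio 0.225, interval 0.185 to 0.272), from rows with equal bounds and no other gene over them. Tk1, the thymidine kinase of the salvage route to the same nucleotide, was at 14.3 FPKM and 11.7 FPKM (ratio 0.818, interval 0.691 to 0.968).

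Among 12 CDK regulators, 3 were past a limit (25%, compared with 17.8% of all genes analysed). Cks2, a small CDK-binding protein, was at 11.2 FPKM in WT against 22.3 FPKM in β-arr1 KO (ratio 1.99, interval 1.42 to 2.80), and Cdkn3, a CDK phosphatase, was at 7.23 FPKM and 11.5 FPKM (ratio 1.58, interval 1.06 to 2.40). Mnat1, a subunit of the CDK-activating kinase, was lower (35.9 FPKM and 22.5 FPKM, ratio 0.628, interval 0.560 to 0.703), while its partners Cdk7 and Ccnh were at ratios of 1.06 and 1.08. In the anaphase-promoting complex, the ubiquitin ligase that ends mitosis, 2 of 14 genes were above and 2 below the limits (28.6%, compared with 17.8% of all genes analysed). The bounds of 6 of the 14 were equal in both tables, and those of all 4 changed genes differed. Cdc23 was at 13.4 FPKM and 26.4 FPKM (ratio 1.97, interval 1.76 to 2.19), from a row that overlapped that of Kif20a (18.6 FPKM and 21.8 FPKM) in both tables. Anapc10 was at 8.30 FPKM and 12.9 FPKM (ratio 1.55, interval 1.30 to 1.86). Anapc11 was at 32.7 FPKM and 9.27 FPKM (ratio 0.283, interval 0.247 to 0.324), and its WT row alone overlapped that of Alyref (25.2 FPKM in WT). Cdc27 was at 34.3 FPKM and 18.1 FPKM (ratio 0.529, interval 0.488 to 0.574), where the WT row took in Kansl1, which only β-arr1 KO lists apart (18.5 FPKM).

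p53 and its cell cycle targets had a median log2 ratio of -0.09, with 5 of 15 higher (33.3%, compared with 53% of all genes). Intervals lay below 1 in 6 genes and above 1 in 2, compared with 18.3% and 22.2% of all genes with an interval. Mdm2, the ligase that degrades p53, was at 97.1 FPKM and 79.2 FPKM (ratio 0.816, interval 0.771 to 0.863), on the same side as Cdkn1a. Trp53, the p53 gene, was higher in β-arr1 KO (41.5 FPKM and 45.3 FPKM, ratio 1.09, interval 1.01 to 1.18). So was Mdm4 (ratio 1.20, interval 1.04 to 1.38). The one gene counted as above the limit, Sfn, was at 12.8 FPKM in β-arr1 KO and had no row of its own in WT, where a row under Zdhhc18 (37.4 FPKM) covered it. Of 8 centromere proteins under other symbols, 4 were higher, and the single one counted below the limit, Hjurp, was at 17.3 FPKM in WT, while in β-arr1 KO a row under 6430706D22Rik (43.4 FPKM) covered it.

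**Figure D5:**
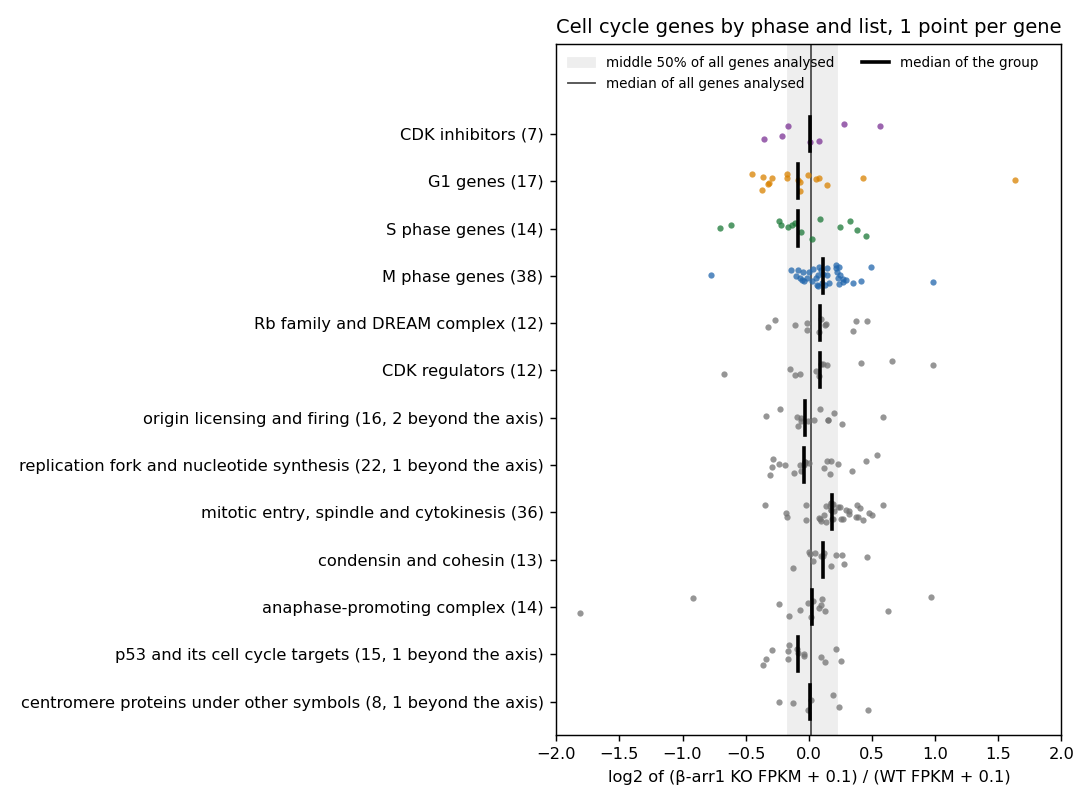
Log2 of the FPKM ratio with 0.1 added to both values (x axis) for the phases of the cell cycle genes and the 9 other lists (y axis). Each gene within the axis is 1 point, and thick lines are medians. Brackets give the number of genes and how many lie beyond the axis without a point (Tyms, Orc5, Orc6, Sfn and Hjurp). The grey band holds the middle 50% of all genes analysed, from -0.17 to 0.22. Medians run from -0.09 for G1, S phase and p53 genes to 0.19 for mitotic entry, spindle and cytokinesis.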

How the data were processed

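RNA of cultured DG astrocytes was sequenced in 1 WT and 1 β-arr1 KO library. Per the labels and the study's methods, the authors aligned paired reads to mm9 with TopHat (1.4.0 in the submitters' processing notes) and estimated expression with Cufflinks, whose version is not given in the sources used here. They deposited 1 table per library of genes with their locus and FPKM, which is scaled for transcript length and mapped fragments. The tables hold no counts or error bounds, and 1 was added to every start to give positions counted from 1.

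Tables were joined by symbol, keeping the row with the highest FPKM, and a gene in one table only was set to 0 in the other. Ratios used FPKM as deposited, for genes reaching 1 FPKM in one library, with the study's limits of 3/2 and 2/3. List medians used log2((KO + 0.1)/(WT + 0.1)). Mapped fragments were estimated from genes under 0.15 FPKM with 1 GENCODE transcript above 1000 bases, of which 71.5% (411 genes, WT) and 72% (428 genes, β-arr1 KO) lay within 5% of a step of 1, 2 or 3 fragments. Fragments per gene used the longest transcript, also where bounds differed, so intervals can be too narrow. Cufflinks divides reads shared by gene copies, and reads of overlapping genes cannot be told apart. Calls, intervals and depth were tested on data simulated with the same counting error and kind of steps that they assume. That test cannot show whether these assumptions hold for the 2 libraries.

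The members, lists and motifs were chosen with earlier results of these data known. Full values were given for Mki67, Top2a, Mcm2, Pcna, Ccnd1, Ccnd2, Cdkn1a, Cdkn1b and Cdkn2a, members past a limit, the 3 most abundant per phase, those nearest each limit inside, and list genes past a limit with at least 5 FPKM (levels alone where only one table lists the gene). Further genes were named after their values were seen. Alternatives were other minimum levels, pseudocounts, scalings and limits, summed rows and equal bounds. Scripts ran in Python 3.11.15 (scipy 1.17.1, pandas 2.3.3, numpy 2.4.6, matplotlib 3.10.9).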

Additional observations from a re-analysis of the deposited data

How the results depend on the processing

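No paired analysis was possible because each genotype has 1 library, and for the same reason no library could be left out. The 5 changed members became 3 with a minimum of 5 FPKM or a pseudocount of 1, 2 with limits of 2 and 1/2, and 1 with equal bounds only. S phase genes went from 2 to 0 under each of these 4 settings. The M phase count of 2 became 1 with limits of 2 and 1/2 or equal bounds. The G1 count of 1 became 0 with equal bounds or with the neighbour's row summed, which was added once the data had been seen and also moved the ratio of Cdk2 from 3.11 to 0.944. The 2256 changed genes overall became 3969 (minimum of 0.1 FPKM), 1179 (minimum of 5 FPKM), 1372 (1 FPKM in both libraries), 1163 (limits of 2 and 1/2) and 1015 (equal bounds). No inhibitor was changed in any setting, and the 3 rescalings changed no count of members. The median log2 ratio of the members stayed between 0.03 and 0.06. Of 464 single ratios recomputed, 463 stayed inside their counting interval. Each rescaling moved all ratios by a common factor, and summing rows moved only Cdkn2d, so this count says little about robustness. Depth limits genes such as Cenph, Cdc25c and Cenpw, whose intervals are wide.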
